A study of Homo sapiens with 6 samples.

Results

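The genes described here are the expressed members of the ZNF family in crizotinib-resistant H3122 cells and in their parent. H3122 is an established human line of lung adenocarcinoma with an EML4-ALK fusion gene, and the resistant cells were derived from it. A gene was taken where its name in the deposited table is ZNF, a number and at most 1 letter, and where its TPM averaged at least 5 over all 6 libraries. TPM is a transcript level corrected for gene length and scaled to the same sum in each library. Of 560 ZNF genes among 51537 genes in the table, 232 met both conditions and 95 were listed at 0 in every library. The resistant group was 3 libraries of H3122 cells, labelled CR, that had been selected by stepwise exposure to crizotinib, a drug that blocks the kinases ALK and MET, from 0.1 to 10 µM. The control group was 3 libraries of H3122 cells, labelled con. Neither the labels nor the protocols say whether the resistant cells were 1 clone or a pool, whether drug was present at harvest, or whether the 3 replicates of a group were separate cultures, so the p-values reflect the scatter of these libraries alone, and that scatter may be technical.

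Most ZNF proteins carry tandem zinc fingers of the C2H2 type, in which paired cysteines and histidines hold a zinc ion and the finger reads bases of DNA. The largest class also carries a KRAB box, which recruits the corepressor TRIM28 and, through it, the histone methyltransferase SETDB1 and HP1 proteins, and many of these proteins silence transposable elements. KRAB ZNF genes lie in clusters of tandem duplicates, above all on chromosome 19, while the ZNF genes without the box are scattered and include promoter-binding factors, partners of chromatin enzymes and proteins that bind RNA.

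The libraries held an estimated 29856927 to 36695580 reads, rebuilt from the TPM values and gene lengths, and 15485 to 16272 genes at 1 TPM or more. Epithelial markers summed to 17790 to 19087 TPM in resistant libraries, against 17096 to 17651 TPM in control libraries, and 0 of 6 were under 1 TPM in all libraries. Of the lung adenocarcinoma markers, 3 of 6, NKX2-1, SFTPB and SFTA2, were under 1 TPM in all libraries, and the list summed to 86.2 to 96.9 TPM in resistant libraries, against 177 to 178 TPM in control libraries. Nearly all of that sum was FOXA1, at 88.5 TPM in resistant cells and 175 TPM in control cells. FOXA2 averaged 2.58 TPM in resistant cells and was listed at 0 in control cells, and NKX2-1 averaged 0.640 TPM in resistant cells and 0.0738 TPM in control cells. Markers of other cell types were mostly under 1 TPM in all libraries, at 7 of 9 for immune cells, 7 of 8 for fibroblasts and 3 of 5 for endothelial cells. The fibroblast list summed to 13.6 to 15.0 TPM in resistant libraries, against 3.95 to 4.52 TPM in control libraries, nearly all of it from COL1A1. Its part in the results below was not tested. In bulk RNA, fewer cells of a kind and less RNA per cell cannot be told apart.

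Resistant and control cells differed in many ZNF genes, in both directions. The difference of each gene was tested with limma on log2(TPM + 1) over all 16077 genes that reached 1 TPM in 3 or more libraries, and a gene was called changed at a Benjamini-Hochberg adjusted p below 0.05. All 232 ZNF genes passed that filter, with a mean of 111 to 5763 estimated reads per library and a median of 625. In resistant cells 48 were called higher and 67 lower, and 117 were not called. Together 115 were called, beside 48.6% of all genes tested and 55.7% of those that averaged 5 TPM or more. The share called higher was 20.7%, beside 24.0% of all genes tested and 25.4% of the 11021 genes at that level. The share called lower was 28.9%, beside 24.7% and 30.3%. Both shares were near the background, so the family as a whole did not stand out by its number of calls. Every resistant library lay above every control library for 62 ZNF genes, and every resistant library below every control library for 77, where genes of at least 5 TPM gave 30.0% and 33.9%. The median log2 change, resistant minus control, was -0.03 over the 232 genes, -0.03 over the 11021 genes at 5 TPM or more and -0.00 over all genes tested. Log2 changes here are differences of log2(TPM + 1), and the added 1 makes the change of a weakly expressed gene look smaller than it is.

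**Figure D1:**
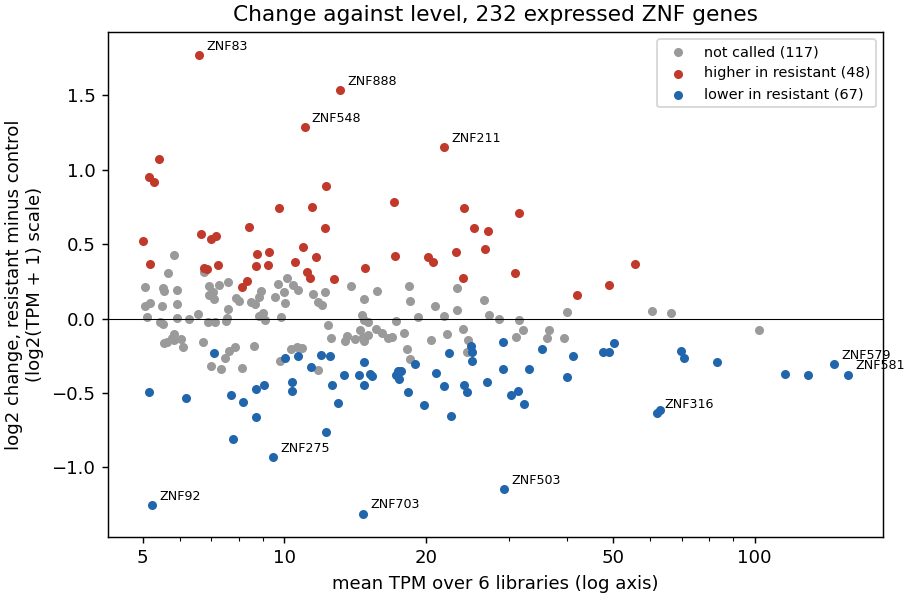
Log2 change of each of the 232 expressed ZNF genes (resistant minus control, log2(TPM + 1) scale, vertical axis) against its mean TPM over the 6 libraries (horizontal log axis); each point is 1 gene, coloured by the limma call, and the most extreme and most abundant genes are named. The largest rises are those of ZNF83, at 1.77, and ZNF888, at 1.54, and the most abundant genes, ZNF581 and ZNF579, lie below 0.

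Most changes were small. By the ratio of group means, 7 called genes were at least 2-fold higher in resistant cells and 4 at least 2-fold lower; at 1.5-fold the counts were 21 higher and 15 lower. By level, of the 88 genes between 5 and 10 TPM, 20 were called higher and 11 lower, of the 76 between 10 and 20 TPM 14 and 24, and of the 68 at 20 TPM or more 14 and 32. Over all genes tested, the same levels held 514 calls higher and 476 lower of 2132, 547 and 792 of 2553, and 1735 and 2070 of 6336. No difference between levels was tested. A mean over both groups lets some genes in through 1 group: 3 ZNF genes averaged under 5 TPM in resistant cells, all 3 called lower, and 11 averaged under 5 TPM in control cells, 6 of them called higher. At the edge of the rule, ZNF485, ZNF84 and ZNF613 were the last inside, at 6.09, 5.25 and 5.49 TPM in resistant cells and 3.93, 4.86 and 4.61 TPM in control cells. ZNF17, ZNF28 and ZNF286A were the first outside, at 6.09, 7.02 and 5.06 TPM in resistant cells and 3.91, 2.95 and 4.89 TPM in control cells.

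All of the 10 largest rises were in genes of chromosome 19, and 9 of the 10 encode a protein with a KRAB box. ZNF83 (ENSG00000167766, chromosome 19, 52594060 to 52690496), the exception, which had 14 fingers and no KRAB match, showed the largest rise. It had 12.9, 9.69 and 9.63 TPM in resistant libraries, against 2.66, 2.65 and 1.98 TPM in control libraries (log2 change 1.77 ± 0.14 SE, limma adjusted p = 6.21e-05). The groups were far apart, with the first resistant library the highest. ZNF888 (ENSG00000213793), a KRAB gene close by, had 24.7, 17.6 and 17.8 TPM in resistant libraries, against 6.59, 6.85 and 5.19 TPM in control libraries (log2 change 1.54 ± 0.15, limma adjusted p = 0.000162). Again the first resistant library was the highest. Because 15.0% of the 50-base windows of ZNF888 occur in a gene elsewhere, mainly ZNF701, its level is uncertain. ZNF850 (ENSG00000267041), with 29 fingers, had 8.41, 7.42 and 5.60 TPM in resistant libraries, against 2.96, 3.51 and 3.06 TPM in control libraries (log2 change 0.95 ± 0.14, limma adjusted p = 0.0012). The other 7 of these 10 genes, ZNF548, ZNF211, ZNF256, ZNF419, ZNF772, ZNF304 and ZNF416, lie together at the far end of the long arm and are described with that region. The 10 include ZNF83, ZNF850, ZNF256 and ZNF419, which averaged under 5 TPM in control cells and met the rule through the resistant libraries.

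The 10 largest falls, taken in the same way among called genes without overlap, were spread over several chromosomes. Of the 10, 4 were on chromosome 7, and only 2 encode a KRAB box. ZNF703 (ENSG00000183779, chromosome 8, 37695751 to 37700021), a transcriptional repressor amplified in luminal breast cancers, had 7.28, 7.08 and 9.87 TPM in resistant libraries, against 20.6, 20.6 and 22.9 TPM in control libraries. It fell by 1.31 ± 0.12 on the log2 scale (limma adjusted p = 0.000115). ZNF503 (ENSG00000165655, chromosome 10), its paralog in the NET family of repressors, had 16.7, 18.7 and 18.1 TPM in resistant libraries, against 37.3, 40.7 and 44.4 TPM in control libraries, and fell by 1.15 ± 0.08 (limma adjusted p = 2.87e-05). Both members of this pair were thus called lower. ZNF92 (ENSG00000146757, chromosome 7), a KRAB gene, had 2.95, 2.23 and 2.89 TPM in resistant libraries, against 7.82, 7.82 and 7.64 TPM in control libraries, and fell by 1.25 ± 0.10 (limma adjusted p = 7.56e-05). It averaged under 5 TPM in resistant cells and met the rule through the control libraries. ZNF275 on chromosome X averaged 6.19 ± 0.235 TPM in resistant cells and 12.8 ± 1.12 TPM in control cells (SD, n = 3 each), a log2 change of -0.93. ZNF800 on chromosome 7, known as a brake on endocrine cell fate in the human gut, averaged 5.38 ± 0.938 TPM in resistant cells and 10.2 ± 1.73 TPM in control cells, a log2 change of -0.81. The remaining 5, ZNF131, ZNF277, ZNF414, ZNF316 and ZNF664, changed by -0.76 to -0.62.

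**Figure D2:**
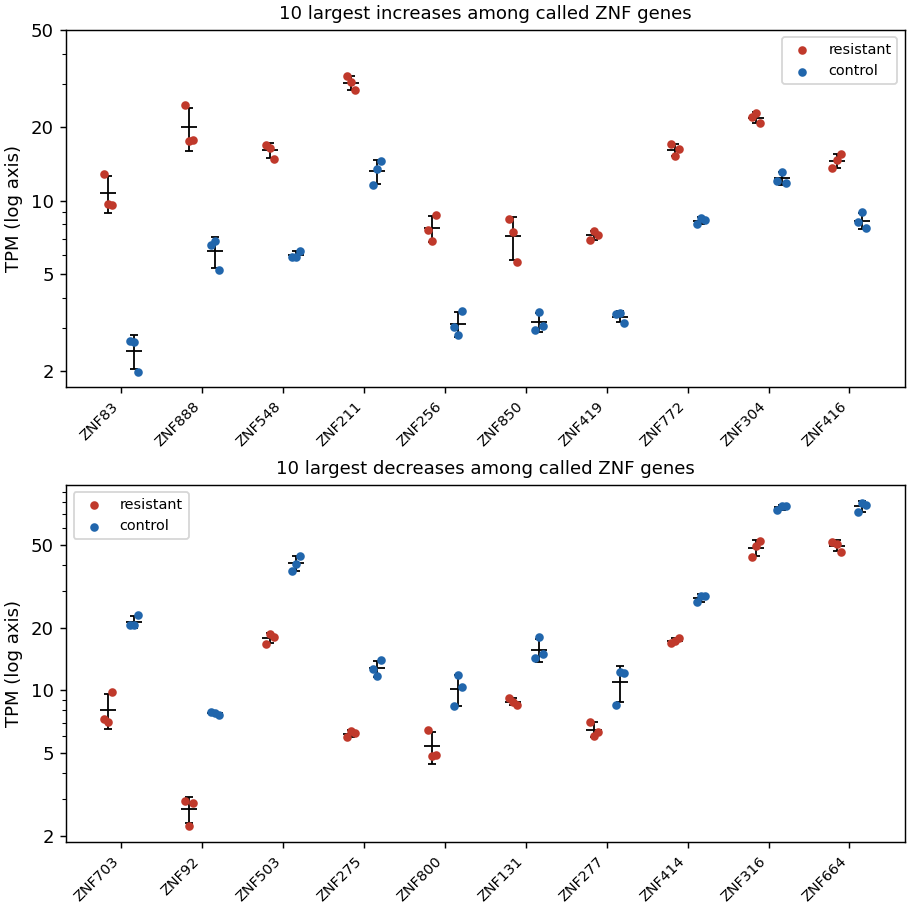
TPM per library (log axis) of the 10 called ZNF genes with the largest rises (top) and the 10 with the largest falls (bottom); points are libraries, resistant left of control, and bars are the mean and SD of 3 libraries. The 20 genes were chosen among those whose resistant and control points do not overlap. They run from ZNF83, at 10.7 TPM on average in resistant and 2.43 TPM in control libraries, to ZNF664, at 49.6 TPM in resistant and 76.5 TPM in control libraries.

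Chromosome 19 carried 86 of the 232 genes, of which 31 were called higher, 16 lower and 39 not called, with a median log2 change of 0.14. The 679 other genes of chromosome 19 at 5 TPM or more had 203 calls higher and 160 lower and a median of 0.04. Off chromosome 19, 17 of 146 ZNF genes were called higher (11.6%) and 51 lower (34.9%), with a median of -0.13. Of the 10110 other genes at that level off chromosome 19, 2545 were called higher (25.2%) and 3111 lower (30.8%), with a median of -0.03. To describe position, neighbouring ZNF genes whose starts lie under 1 Mb apart were joined into runs of at least 5, a rule chosen after values had been seen. The rises gathered in the last run of the long arm, called the distal run here, from ZNF264 to ZNF446 (chromosome 19, 57191500 to 58481230 in GRCh38). Of its 31 genes, 27 of which encode a KRAB box, 19 were called higher, 2 lower and 10 not called. Of all genes tested at 5 TPM or more, 25.4% were called higher and 30.3% lower. Those called higher include ZNF256 and ZNF419, which averaged under 5 TPM in control cells and met the rule through the resistant libraries. The median log2 change of the run was 0.32. Every resistant library lay above every control library for 21 of the 31 genes, where genes of at least 5 TPM gave 30.0%. The TPM of all 31 genes summed to 558 to 576 in resistant libraries, against 413 to 447 in control libraries.

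**Figure D3:**
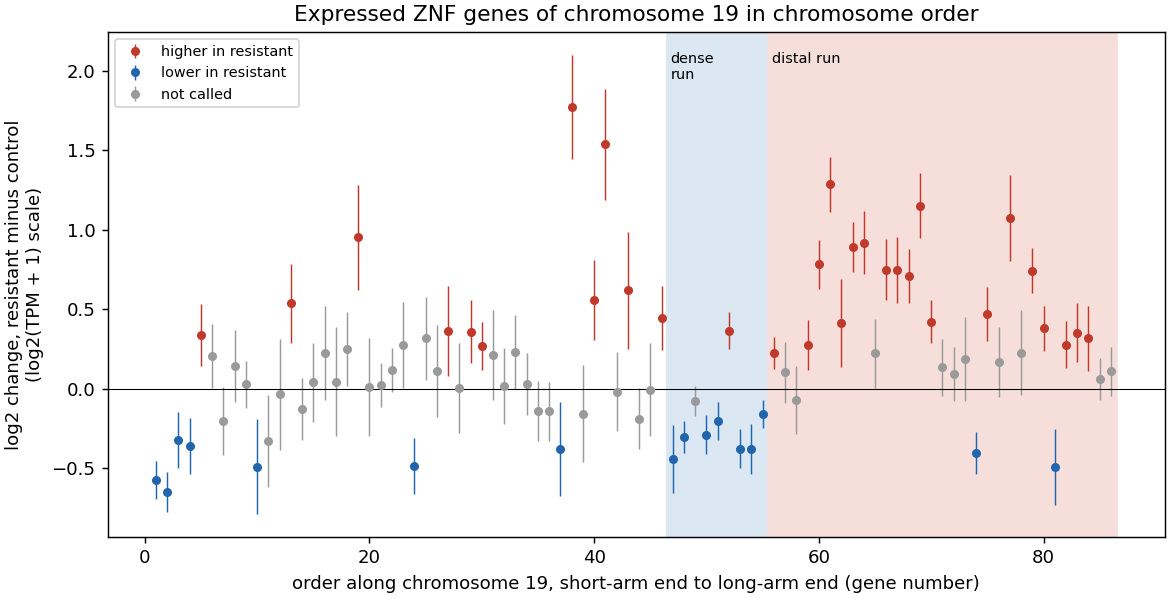
Log2 change with its 95% interval (resistant minus control, log2(TPM + 1) scale) of the 86 expressed ZNF genes of chromosome 19, in chromosome order from the short-arm end to the long-arm end; each point is 1 gene, coloured by the limma call. In the distal run, shaded red, 19 of 31 genes are called higher and 2 lower, and in the dense run before it, shaded blue, 7 of 9 are called lower and 1 higher.

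The distal run holds 7 of the 10 largest rises, and its promoters are shown for the 4 of those with the largest change that have an entry in the promoter table and for the 2 genes of the run that fell. Each sequence runs from 250 bases before to 50 bases after the RefSeq start in GRCh38.p14, on the strand of the gene, and ZNF211 was not in that table. Capitals mark matches, on either strand, to 7 short motifs. They are CCGGAAG of ETS factors, CCAAT of NF-Y, GGGCGG of SP1, TGACGT of CREB, ACTACAA of ZNF143 and AAGATGG of YY1. The last one is ATTACCC, added after the promoters had been read. Adjoining and overlapping matches form 1 block of capitals. A match is a description of these letters and not a bound site. The first 4 lines are genes that rose (ZNF548, chr19:57389604-57389903, plus strand; ZNF256, chr19:57947657-57947956, minus; ZNF419, chr19:57487500-57487799, plus; ZNF772, chr19:57477517-57477816, minus), and the last lines are genes that fell (ZNF587B, chr19:57830049-57830348, plus; ZNF837, chr19:58380981-58381280, minus).
ZNF548: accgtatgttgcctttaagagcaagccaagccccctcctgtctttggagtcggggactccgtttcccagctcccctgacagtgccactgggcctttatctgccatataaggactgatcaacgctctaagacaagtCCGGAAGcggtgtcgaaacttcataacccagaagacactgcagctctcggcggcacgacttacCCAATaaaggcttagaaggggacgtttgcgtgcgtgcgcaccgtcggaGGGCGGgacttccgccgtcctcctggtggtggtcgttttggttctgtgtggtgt
ZNF256: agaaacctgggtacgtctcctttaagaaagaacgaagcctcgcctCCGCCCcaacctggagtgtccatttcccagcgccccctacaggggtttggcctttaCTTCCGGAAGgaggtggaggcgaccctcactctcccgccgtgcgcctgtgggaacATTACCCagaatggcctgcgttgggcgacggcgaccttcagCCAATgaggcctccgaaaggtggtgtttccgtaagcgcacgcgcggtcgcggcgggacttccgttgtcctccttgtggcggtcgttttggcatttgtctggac
ZNF419: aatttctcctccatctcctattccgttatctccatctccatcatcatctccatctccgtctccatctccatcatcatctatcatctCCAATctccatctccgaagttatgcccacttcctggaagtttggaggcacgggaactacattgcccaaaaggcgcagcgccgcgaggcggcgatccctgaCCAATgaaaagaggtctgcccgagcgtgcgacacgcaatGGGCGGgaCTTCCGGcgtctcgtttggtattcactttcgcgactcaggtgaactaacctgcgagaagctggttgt
ZNF772: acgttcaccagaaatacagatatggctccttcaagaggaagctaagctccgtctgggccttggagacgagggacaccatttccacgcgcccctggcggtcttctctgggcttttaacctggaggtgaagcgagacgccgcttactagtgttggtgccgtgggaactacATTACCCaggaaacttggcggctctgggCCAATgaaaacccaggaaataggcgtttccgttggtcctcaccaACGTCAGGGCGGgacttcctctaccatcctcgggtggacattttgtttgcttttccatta
ZNF587B: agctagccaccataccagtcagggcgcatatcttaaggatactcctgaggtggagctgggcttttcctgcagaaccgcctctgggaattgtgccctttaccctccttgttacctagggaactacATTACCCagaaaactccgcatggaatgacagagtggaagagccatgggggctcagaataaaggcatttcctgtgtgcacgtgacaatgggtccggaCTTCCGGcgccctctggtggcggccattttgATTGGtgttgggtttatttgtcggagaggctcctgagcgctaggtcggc
ZNF837: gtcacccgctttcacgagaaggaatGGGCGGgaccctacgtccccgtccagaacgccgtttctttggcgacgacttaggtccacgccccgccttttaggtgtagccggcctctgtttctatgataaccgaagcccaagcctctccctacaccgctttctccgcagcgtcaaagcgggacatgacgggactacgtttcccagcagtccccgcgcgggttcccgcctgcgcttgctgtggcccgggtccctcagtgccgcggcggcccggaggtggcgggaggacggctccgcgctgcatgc
Of these 6 windows, those of ZNF548, ZNF256, ZNF419 and ZNF587B hold the ETS motif, and that of ZNF837 holds SP1 as its single match. The RefSeq start of ZNF587B lies inside the gene as GENCODE draws it, so its window is not at the outermost annotated start.

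Over the 28 distal-run genes with a promoter entry, 78.6% held the ETS motif, against 43.4% of the 198 expressed ZNF genes with an entry and 10.7% of all 27305 promoters in the table. CCAAT was held by 75.0%, 42.4% and 35.7% of the same 3 sets, and ATTACCC by 28.6%, 5.05% and 1.502%. Because ATTACCC was picked after the promoters had been read, its shares only describe them. Within the run, the ETS motif was in 14 of the 18 promoters of genes called higher and in 8 of the other 10, CCAAT in 15 and 6, and ATTACCC in 6 and 2; these splits were not tested. The other motifs were held by 64.3% (SP1), 17.9% (CREB), 3.57% (ZNF143) and 0% (YY1) of the 28. Those shares were 68.2%, 13.1%, 7.07% and 8.08% of the 198 expressed ZNF genes, and 44.6%, 8.32%, 2.95% and 6.06% of all promoters. Over all expressed ZNF genes, promoters of those called lower had a median of 30 CpG pairs per window and a GC content of 68.7%, and promoters of those called higher had 22 and 61.3%. These genes share duplicated ancestors, so their promoters are not independent sequences.

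Within the distal run the values of the largest rises were as follows. ZNF548 (ENSG00000188785, 11 fingers) had 17.0, 16.4 and 14.8 TPM in resistant libraries, against 5.90, 5.87 and 6.23 TPM in control libraries (log2 change 1.29 ± 0.07, limma adjusted p = 1.61e-05). ZNF211 (ENSG00000121417) had 32.3, 30.6 and 28.5 TPM in resistant libraries, against 11.6, 13.4 and 14.5 TPM in control libraries (log2 change 1.15 ± 0.09, limma adjusted p = 5.32e-05). ZNF256 (ENSG00000152454) had 7.58, 6.83 and 8.73 TPM in resistant libraries, against 3.03, 2.82 and 3.55 TPM in control libraries (log2 change 1.07 ± 0.12, limma adjusted p = 0.00025). In each of these 3 genes the lowest resistant library was well above the highest control library. ZNF419 and ZNF772, near neighbours, averaged 7.21 ± 0.332 and 16.2 ± 0.890 TPM in resistant cells and 3.35 ± 0.172 and 8.28 ± 0.267 TPM in control cells (SD, n = 3 each), with log2 changes of 0.92 and 0.89. ZNF416, ZNF530 and ZNF134 changed by 0.75, 0.75 and 0.71.

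ZNF304 (ENSG00000131845, chromosome 19, 57351307 to 57359898) is known to bring TRIM28 and DNA methylation to the INK4-ARF locus in colorectal cancer cells. It had 22.1, 23.0 and 20.7 TPM in resistant libraries, against 12.1, 13.2 and 11.8 TPM in control libraries (log2 change 0.78 ± 0.07, limma adjusted p = 8.52e-05). ZNF274 (ENSG00000171606), which binds the end of many other ZNF genes and recruits SETDB1 there, had 31.3, 31.3 and 28.8 TPM in resistant libraries, against 16.9, 18.7 and 17.8 TPM in control libraries. Its log2 change was 0.74 ± 0.06 (limma adjusted p = 7e-05), and it was picked out after its values had been seen. Both genes were therefore higher in every resistant library. ZNF587 and ZNF417, near-identical proteins (98.1% identity) known to repress endogenous retroviruses in human cells, differed in their calls. ZNF587 averaged 31.1 ± 1.23 TPM in resistant cells and 22.3 ± 2.01 TPM in control cells (log2 change 0.47, limma adjusted p = 0.00145). ZNF417 averaged 12.2 ± 1.29 TPM in resistant cells and 10.8 ± 0.863 TPM in control cells and was not called (log2 change 0.17, limma adjusted p = 0.182). With 18.8% of the windows of ZNF587, and more of those of ZNF417, found in genes elsewhere, mainly in each other, the split of reads between them is uncertain.

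The distal run also held exceptions. ZNF587B, which shares sequence with ZNF814, had 14.4, 15.6 and 15.0 TPM in resistant libraries, against 20.4, 20.6 and 19.4 TPM in control libraries, and fell by 0.40 (limma adjusted p = 0.00092). ZNF837 had 15.6, 12.6 and 17.0 TPM in resistant libraries, against 22.1, 21.4 and 20.9 TPM in control libraries, and fell by 0.49 (limma adjusted p = 0.00551). Both genes fell between neighbours that rose, and in both the groups did not overlap. ZNF460, near the start of the run, averaged 14.1 TPM in resistant cells and 14.9 TPM in control cells, and ZNF324, near its end, averaged 23.8 TPM in resistant cells and 22.8 TPM in control cells. Neither was called. Of the genes called higher, ZNF749 lost its call without resistant library 2 or 3 or control library 1 or 3 (adjusted p = 0.0508 to 0.0741), ZNF324B without resistant library 2 or 3 or control library 1 or 2 (0.0536 to 0.066), and ZNF543 without control library 3 (0.0518), all by limma. With the 16 genes that share at least 5% of their windows with another gene left out, 11 of 15 genes of the run were called higher and 1 lower, with a median log2 change of 0.42.

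Between the same coordinates lay 42 other genes that passed the filter of 1 TPM in 3 libraries. Of these, 21 were called higher and 2 lower, beside 24.0% and 24.7% of all genes tested. Among the 21 were 7 genes under 1 TPM in every control library, which passed the filter through the resistant libraries alone, and 0 of the 42 were under 1 TPM in every resistant library. Of the remaining 35, 14 were called higher and 2 lower, so the counts describe the genes that passed and no more. Of the 42, 10 carry ZNF names but averaged under 5 TPM, and 7 of the 10 were called higher and 1 lower. Of the 11 protein-coding genes of other names, 7 were called higher and 0 lower. They include AURKC, a kinase of meiosis, at 3.76 TPM in resistant cells and 2.09 TPM in control cells, and SLC27A5, a bile acid and fatty acid CoA ligase, at 9.06 TPM in resistant cells and 5.30 TPM in control cells. ZSCAN4, a gene of the early embryo, averaged 1.78 TPM in resistant cells and was listed at 0 in all control libraries. The values of these neighbours were described after they had been seen.

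Elsewhere on chromosome 19 the runs differed in direction. The run just before the distal one, from ZNF628 to ZNF444 (55476332 to 56160893) and called the dense run here, held 9 genes, 7 called lower, 1 higher and 1 not called, with a median log2 change of -0.29. The 12 other genes tested there had 5 calls lower and 0 higher. Of all genes tested, 24.7% were called lower and 24.0% higher, and of those at 5 TPM or more 30.3% and 25.4%. The dense run contains 4 of the 5 most abundant ZNF genes in these cells, ZNF581, ZNF579, ZNF787 and ZNF524, which encode short-arrayed proteins of 4 to 8 fingers with no KRAB match. ZNF581 had 138, 139 and 134 TPM in resistant libraries, against 168, 190 and 177 TPM in control libraries (log2 change -0.38, limma adjusted p = 0.000838). ZNF579 had 126, 132 and 137 TPM in resistant libraries, against 164, 165 and 160 TPM in control libraries (log2 change -0.31, limma adjusted p = 0.00107). ZNF787 averaged 113 ± 9.74 TPM in resistant cells and 147 ± 5.33 TPM in control cells (log2 change -0.38). All 3 were lower in every resistant library. ZNF524, a telomere-binding protein, averaged 99.3 ± 1.30 TPM in resistant cells and 105 ± 2.94 TPM in control cells and was not called (limma adjusted p = 0.149).

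ZNF580 was the 1 gene of the dense run called higher, with 59.4, 66.4 and 62.4 TPM in resistant libraries, against 47.9, 48.9 and 48.7 TPM in control libraries (log2 change 0.36, limma adjusted p = 0.00083). It overlaps ZNF581 on the same strand, and 11.4% of its windows and 18.4% of those of ZNF581 lie in the other or in a further overlapping gene. How the authors' counting divided such reads is not given in the sources used here, so the opposite calls of this pair are uncertain. The run that holds ZNF83 and ZNF888 had 16 genes, 5 called higher and 1 lower, with a median of 0.02. At 5 TPM or more, 25.4% of all genes tested were called higher and 30.3% lower. Besides ZNF83 and ZNF888, ZNF468, ZNF525 and ZNF331 were higher, at 8.71, 10.4 and 27.0 TPM in resistant cells and 5.59, 6.41 and 19.5 TPM in control cells. ZNF480 was lower, at 12.3 TPM in resistant cells and 16.5 TPM in control cells. The 22 other genes tested in this run, with a median level of 2.43 TPM, had 13 calls higher and 0 lower, with a median log2 change of 0.40. Of these, 11 carry ZNF names, with 8 called higher and 0 lower. Over all genes tested, 24.0% were called higher and 24.7% lower. Genes at so low a level can pass the filter through 1 group alone. ZNF331 is an imprinted gene, and 55.2% of the windows of ZNF468 lie in an overlapping gene. The run nearest the short-arm end, with 9 genes, had 4 called lower and 1 higher. The 34 other genes tested there had 13 calls lower and 3 higher. ZNF414 lies in this run, with 16.9, 17.3 and 17.8 TPM in resistant libraries, against 26.5, 28.5 and 28.5 TPM in control libraries (log2 change -0.65, limma adjusted p = 7.31e-05).

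On chromosome 7, 11 of 18 ZNF genes were called lower and 1 higher, with a median log2 change of -0.28. The other genes of that chromosome at 5 TPM or more moved the same way: of 517, 305 were called lower and 63 higher, with a median of -0.33. The fall of ZNF genes on chromosome 7 thus lay beside a fall of most genes there, whose part in it was not tested. ZNF316 had 43.9, 49.4 and 52.0 TPM in resistant libraries, against 73.2, 76.6 and 77.1 TPM in control libraries (log2 change -0.64, limma adjusted p = 0.000215). ZNF467 was the 1 ZNF gene of chromosome 7 called higher, at 32.7 TPM in resistant cells and 21.4 TPM in control cells. On chromosome X the median of 348 other genes was -0.33, and 2 of 5 ZNF genes, ZNF275 and ZNF185, were lower and 0 higher. Without chromosomes 7 and X, 47 of 209 ZNF genes were called higher and 54 lower.

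On the other chromosomes with at least 8 expressed ZNF genes the largest called change was as follows. It was -0.51 for ZNF697 on chromosome 1, where 2 of 13 genes were higher and 7 lower, and -1.15 for ZNF503 on chromosome 10, where 3 of 9 were higher and 3 lower. It was 0.61 for ZNF319 on chromosome 16, where 4 of 23 were higher and 4 lower. ZNF319 had 29.7, 30.7 and 31.6 TPM in resistant libraries, against 18.97, 20.9 and 19.6 TPM in control libraries (limma adjusted p = 0.000117), so its groups were well apart. It was -0.62 for ZNF664 on chromosome 12, where 1 of 8 was higher and 4 lower, and -1.31 for ZNF703 on chromosome 8, where 0 of 12 were higher and 5 lower. Among other genes at 5 TPM or more, chromosome 1 had 25.4% called higher and 35.8% lower. Those shares were 22.6% and 38.6% on chromosome 10 and 26.8% and 25.8% on chromosome 16. They were 20% and 31.6% on chromosome 12 and 17.7% and 30.1% on chromosome 8.

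Members of the KRAB class and the other ZNF genes showed different balances of calls. A protein was taken to carry a KRAB box where its longest coding sequence in GENCODE 29 matched at least 2 of 3 patterns of the box, so divergent boxes can be missed. Of the 100 genes with a KRAB match, 28 were called higher and 15 lower, with a median log2 change of 0.04. Of the other 132, 20 were called higher and 52 lower, with a median of -0.13. Beside both classes, 25.4% of all genes tested at 5 TPM or more were called higher and 30.3% lower. The median level also differed, at 10.4 TPM for the KRAB class and 16.5 TPM for the 120 genes that matched no pattern. The part of level in the balance was not tested. The balance also differed by position. Outside the distal run, 11 of 73 KRAB genes were called higher (15.1%) and 14 lower (19.2%), with a median of -0.02. KRAB genes of the distal run had 17 of 27 called higher and 1 lower, KRAB genes on the rest of chromosome 19 had 7 of 30 higher and 3 lower, and KRAB genes off chromosome 19 had 4 of 43 higher and 11 lower. The medians of these 3 sets were 0.32, 0.03 and -0.13, and that of the 103 genes off chromosome 19 without a KRAB match was also -0.13. No test was made of the difference between these sets, since their genes were chosen with results known.

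**Figure D4:**
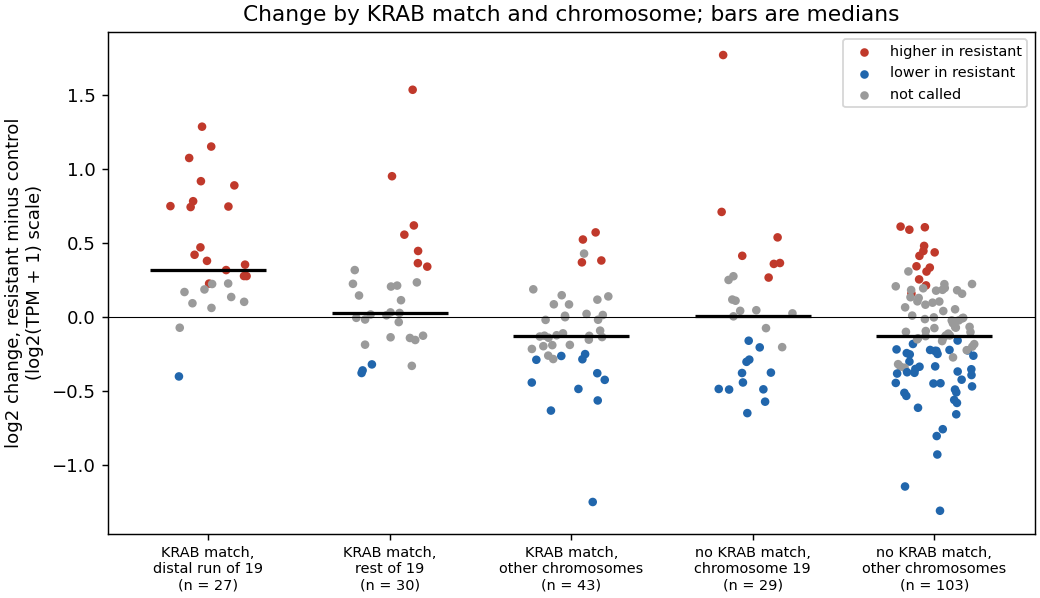
Log2 change (resistant minus control, log2(TPM + 1) scale) of the 232 expressed ZNF genes by KRAB match and chromosome; points are genes coloured by the limma call, spread sideways for legibility, and bars are medians. The median is 0.32 for the 27 KRAB genes of the distal run of chromosome 19 and -0.13 for the 43 KRAB genes off that chromosome, equal to that of the 103 genes there without a KRAB match.

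By number of fingers, from 0 to 31 with a median of 9, the 16 genes with 0 or 1 finger had 0 calls higher and 7 lower, and the 61 genes with 13 or more had 15 higher and 11 lower. Between these, 9 of 54 genes with 2 to 6 fingers were called higher and 20 lower, and 24 of 98 with 7 to 12 fingers were called higher and 28 lower. Beside these counts, 25.4% of all genes tested at 5 TPM or more were called higher and 30.3% lower. The median level also differed, at 19.7 TPM for genes with 0 or 1 finger and 9.76 TPM for those with 13 or more. No difference between these classes was tested. A finger was counted where a translated sequence held a cysteine, 2 to 4 residues, a cysteine, 12 residues, a histidine, 3 to 5 residues and a histidine, so atypical fingers are not counted.

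ZNF proteins known as partners of chromatin or SUMO enzymes were lower or not called. Of 10 expressed members of this list, 0 were called higher and 7 lower, with a median log2 change of -0.22. At 5 TPM or more, 25.4% of all genes tested were called higher and 30.3% lower, with a median of -0.03, and each role list below is to be read beside these shares. ZNF219, a cofactor of Sox9 in mouse cartilage, had 22.7, 25.2 and 26.4 TPM in resistant libraries, against 37.7, 33.1 and 36.6 TPM in control libraries (log2 change -0.51, limma adjusted p = 0.000948). ZNF277, which binds the Polycomb protein BMI1, had 7.07, 6.04 and 6.32 TPM in resistant libraries, against 8.47, 12.3 and 12.1 TPM in control libraries (log2 change -0.66, limma adjusted p = 0.00609). It lies on chromosome 7, and its groups did not overlap. ZNF512B, which binds the NuRD complex, averaged 45.1 ± 1.85 TPM in resistant cells and 53.0 ± 3.12 TPM in control cells (log2 change -0.23). ZNF644, a partner of the G9a and GLP methyltransferases, averaged 7.12 ± 0.829 TPM in resistant cells and 10.3 ± 1.72 TPM in control cells (log2 change -0.47).

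The calls of 4 of these 7 genes depended on single libraries. ZNF217, a breast cancer oncoprotein that works with LSD1 and CtBP, had 71.3, 61.2 and 60.3 TPM in resistant libraries, against 70.0, 78.1 and 76.7 TPM in control libraries, so its groups overlapped (log2 change -0.22, limma adjusted p = 0.0432). It lost its call without resistant library 2 or 3 or control library 2 or 3 (limma adjusted p = 0.116 to 0.136). ZNF592 and ZNF687, which form a complex with ZMYND8, averaged 23.3 and 27.4 TPM in resistant cells and 26.6 and 30.8 TPM in control cells. ZNF592 lost its call without resistant or control library 3 (limma adjusted p = 0.0701 and 0.0644), and ZNF687 without resistant library 1 or 3 or control library 2 or 3 (0.0727 to 0.103). ZNF644 lost its call without resistant library 2 or 3 or control library 2 or 3 (limma adjusted p = 0.0501 to 0.0594). Of the members not called, ZNF516 averaged 27.8 TPM in resistant cells and 25.4 TPM in control cells, and ZNF518B averaged 5.40 TPM in resistant cells and 4.96 TPM in control cells. ZNF292 averaged 6.39 TPM in resistant cells and 8.28 TPM in control cells, and was called lower without resistant library 1 (limma adjusted p = 0.025).

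**Figure D5:**
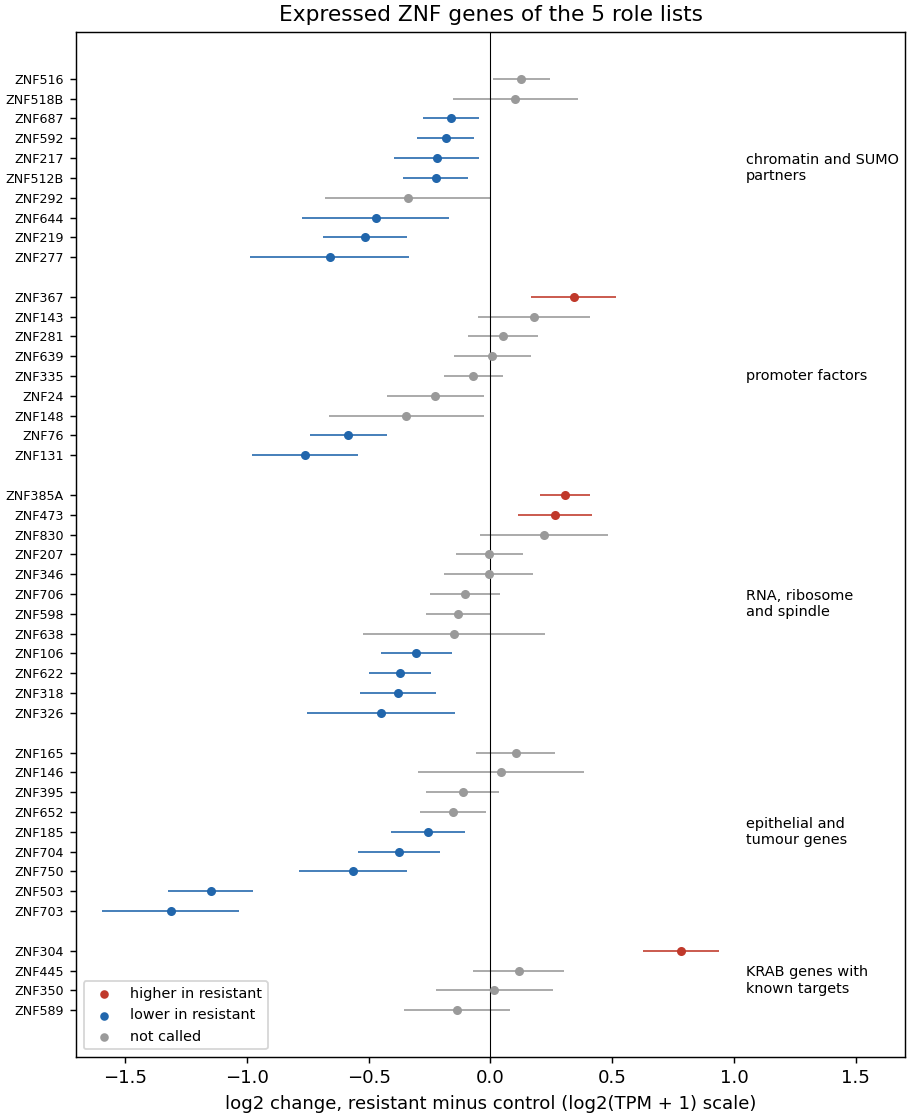
Log2 change with its 95% interval (resistant minus control, log2(TPM + 1) scale, horizontal axis) of the 44 expressed ZNF genes in the 5 role lists; points are genes, coloured by the limma call. In the list of chromatin and SUMO partners 7 of 10 are called lower and 0 higher, in the list of epithelial and tumour genes 5 of 9 and 0, and the largest falls are those of ZNF703 and ZNF503.

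Of 9 promoter-binding factors without a KRAB box, 1 was called higher and 2 lower, with a median log2 change of -0.07. ZNF131, a factor with a BTB domain, had 9.15, 8.81 and 8.47 TPM in resistant libraries, against 14.2, 18.0 and 14.9 TPM in control libraries, and fell by 0.76 (limma adjusted p = 0.000455). ZNF76, a paralog of ZNF143, had 17.1, 15.3 and 14.7 TPM in resistant libraries, against 23.9, 24.6 and 23.4 TPM in control libraries, and fell by 0.58 (limma adjusted p = 0.000349). In both the groups were well apart. ZNF143 itself, an activator at promoters of many widely expressed genes, averaged 10.6 ± 0.420 TPM in resistant cells and 9.31 ± 1.25 TPM in control cells and was not called (log2 change 0.18, 95% interval -0.05 to 0.41). ZNF367 was higher, at 16.7 ± 1.35 TPM in resistant cells and 12.99 ± 0.655 TPM in control cells (log2 change 0.34, limma adjusted p = 0.00707). ZNF281, ZNF639 and ZNF335, a coactivator of nuclear receptors, had log2 changes of 0.05, 0.01 and -0.07 and were not called. ZNF24 and ZNF148, at -0.23 and -0.35, were not called over all libraries with the main settings. Both were called lower without resistant library 1 (limma adjusted p = 0.0408 and 0.00709), and ZNF24 also without control library 1 (0.0131). With all 6 libraries, both were called lower with a filter at 5 TPM (limma adjusted p = 0.0397 and 0.0449) and with median-ratio scaling (0.0164 and 0.0411). ZNF24 was also called lower by limma-voom (adjusted p = 0.0253).

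Of 12 ZNF proteins known from RNA, ribosome or spindle work, 2 were called higher and 4 lower, with a median of -0.12. ZNF622, a factor in the maturation of the large ribosomal subunit and among the 5 most abundant ZNF genes, had 94.3, 107 and 102 TPM in resistant libraries, against 128, 134 and 131 TPM in control libraries, and fell by 0.37 (limma adjusted p = 0.00116). ZNF318, which controls the IgD transcript in mouse B cells, fell by 0.38, and ZNF106 by 0.30. ZNF326, a subunit of the DBIRD complex that couples transcription to splicing, fell by 0.45, with 14.5, 10.5 and 11.97 TPM in resistant libraries, against 15.99, 19.8 and 15.8 TPM in control libraries. Its call was lost without resistant library 2 or 3 or control library 2 (limma adjusted p = 0.0618 to 0.0675). ZNF385A, which binds p53 and mRNA, was higher, at 34.4 ± 0.964 TPM in resistant cells and 27.6 ± 0.153 TPM in control cells (log2 change 0.31, limma adjusted p = 0.00106). ZNF473, a component of histone mRNA processing, was also higher, with 13.9, 14.7 and 13.4 TPM in resistant libraries, against 11.5, 11.0 and 11.9 TPM in control libraries (log2 change 0.26). ZNF598, the ubiquitin ligase that marks collided ribosomes, averaged 37.6 ± 2.57 TPM in resistant cells and 41.2 ± 0.348 TPM in control cells, and ZNF207, a spindle and kinetochore protein, averaged 28.5 TPM in resistant cells and 28.6 TPM in control cells. Neither of these 2 was called, nor were ZNF830, ZNF346, ZNF706 and ZNF638, with log2 changes of 0.22, -0.01, -0.10 and -0.15.

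Among 9 ZNF genes known from epithelia or tumours, 0 were called higher and 5 lower, with a median of -0.25. Beside ZNF703 and ZNF503, ZNF750, a factor of epidermal differentiation, was lower, with 5.93, 6.50 and 6.73 TPM in resistant libraries, against 8.77, 10.9 and 10.2 TPM in control libraries (log2 change -0.56, limma adjusted p = 0.00212). ZNF704 was lower at 13.1 TPM in resistant cells and 17.3 TPM in control cells (log2 change -0.38). ZNF185 encodes a LIM-domain protein of the actin cytoskeleton with no C2H2 finger. It was lower at 37.5 TPM in resistant cells and 44.9 TPM in control cells (log2 change -0.25), and lost its call without resistant library 3 (limma adjusted p = 0.0529). ZNF165, ZNF146, ZNF395 and ZNF652 were not called over all libraries with the main settings, with log2 changes of 0.10, 0.04, -0.11 and -0.15. ZNF652, a partner of the corepressor CBFA2T3, was called lower without resistant library 1 (limma adjusted p = 0.049). With all 6 libraries it was called lower with median-ratio scaling (limma adjusted p = 0.0439).

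Of a list of 12 KRAB genes with a role known for repeats, imprints or single loci, 4 were among the expressed ZNF genes. ZNF304 was higher, as given above. ZNF445, which with ZFP57 protects imprints, averaged 8.39 ± 0.495 TPM in resistant cells and 7.67 ± 0.497 TPM in control cells and was not called (log2 change 0.12, 95% interval -0.07 to 0.30). ZNF350, a partner of BRCA1, averaged 8.89 TPM in resistant cells and 8.82 TPM in control cells, and ZNF589 averaged 5.69 TPM in resistant cells and 6.36 TPM in control cells. Neither was called.

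The partners through which KRAB proteins act were mostly lower or not called in resistant cells. TRIM28, which binds the KRAB box, had 892, 993 and 996 TPM in resistant libraries, against 938, 952 and 947 TPM in control libraries, with overlapping groups and no call (log2 change 0.02, 95% interval -0.10 to 0.14, limma adjusted p = 0.765). Of 23 genes found for TRIM28 and the heterochromatin enzymes around it, 3 were called higher and 13 lower (56.5%), with a median log2 change of -0.22, beside 25.4% and 30.3% of all genes tested at 5 TPM or more. SETDB1 averaged 13.2 TPM in resistant cells and 16.2 TPM in control cells (log2 change -0.27). The HP1 genes split: CBX1 was higher at 120 TPM in resistant cells and 92.7 TPM in control cells, and CBX5 and CBX3 were lower by 0.24 and 0.26 on the log2 scale. TRIM24, a relative of TRIM28 on chromosome 7, had 6.88, 6.03 and 6.08 TPM in resistant libraries, against 12.8, 14.3 and 13.3 TPM in control libraries (log2 change -0.98, limma adjusted p = 6.87e-05). Of the DNA methyltransferases, DNMT3B was higher at 19.1 TPM in resistant cells and 12.6 TPM in control cells, and DNMT3A was lower at 23.3 TPM in resistant cells and 29.4 TPM in control cells. DNMT1, at 79.7 TPM in resistant cells and 79.8 TPM in control cells, was not called.

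Of the remaining corepressor genes, EHMT1 was called higher, and CHD3, CHD4, HDAC2, MTA1, MTA2, RBBP7, TRIM33 and EHMT2 were called lower, while ATF7IP, HDAC1, RBBP4, SUV39H1 and SUV39H2 were not called. CBX3 and HDAC2 lost their calls without resistant or control library 2 or 3 (limma adjusted p = 0.0994 to 0.105 and 0.11 to 0.129), and TRIM33 without resistant library 2 or 3 (0.0503 and 0.0521). HDAC1 was called lower without control library 1 (limma adjusted p = 0.047), and RBBP4 higher without control library 2 (0.0461). With all 6 libraries, RBBP4 was called higher by limma-voom (adjusted p = 0.00268). Of 9 genes of the HUSH silencing complex and related silencers, 0 were called higher and 2 lower (22.2%). Of all genes tested at 5 TPM or more, 25.4% were called higher and 30.3% lower. MPHOSPH8, its reader of methylated histone H3, had 8.40, 6.65 and 7.89 TPM in resistant libraries, against 13.4, 15.3 and 15.2 TPM in control libraries (log2 change -0.86, limma adjusted p = 0.00032). ATRX, a chromatin remodeller on chromosome X, had 8.25, 5.42 and 7.12 TPM in resistant libraries, against 15.1, 19.7 and 16.2 TPM in control libraries (log2 change -1.19, limma adjusted p = 0.000555). The groups of both genes were well apart. FAM208A, FAM208B, PPHLN1, MORC3, SMCHD1 and DAXX were not called. MORC2 was not called either over all libraries with the main settings, but was called lower without control library 1 (limma adjusted p = 0.00928). With all 6 libraries it was called lower with median-ratio scaling (limma adjusted p = 0.0204).

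Near-identical genes make some values uncertain. In 42 of the 232 genes at least 5% of 50-base windows occur in another gene, and for 20 of them that gene lies elsewhere in the genome. Among pairs with at least 80% protein identity, ZNF33A and ZNF33B (92.6%) averaged 8.74 and 6.98 TPM in resistant cells and 10.8 and 8.29 TPM in control cells. Neither of these was called over all libraries with the main settings, and ZNF33A was called lower without resistant library 1 (limma adjusted p = 0.00768). With all 6 libraries, both were called lower with median-ratio scaling (limma adjusted p = 0.0256 and 0.0246) and by limma-voom (0.02 and 0.0363). ZNF33A was also called lower with a filter at 5 TPM (limma adjusted p = 0.0352). ZNF561 and ZNF562 (83.9%) averaged 10.1 and 14.8 TPM in resistant cells and 9.05 and 14.5 TPM in control cells, with no call. In the distal run, ZNF264 was called higher at 53.0 TPM in resistant cells and 45.2 TPM in control cells, while its relative ZNF805 (85.5%) was not, at 8.97 TPM in resistant cells and 8.32 TPM in control cells. Likewise ZNF324B was called higher, at 12.5 TPM in resistant cells and 9.83 TPM in control cells, and ZNF324 (91.1%) was not, and whether either pair differs in its change was not tested. With the 42 genes left out, 36 ZNF genes were called higher and 58 lower.

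Of 63 ZBTB, ZSCAN, ZKSCAN, ZFP, KLF and SP genes at 5 TPM or more on average, 9 were called higher (14.3%) and 24 lower (38.1%), with a median log2 change of -0.13, beside 25.4% and 30.3% of all genes tested at that level. No test was made of these shares against the background. The ZBTB genes, which join a BTB domain to zinc fingers, had 4 of 32 called higher and 14 lower.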

How the data were processed

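Poly(A) RNA of 3 resistant and 3 control H3122 libraries was made into libraries with a KAPA stranded kit, per the labels' protocols. The authors deposited 1 table of TPM with a column per library, each summing to 1000000. The submitters' processing notes name HISAT2. Which version, counting tool, strand setting, gene lengths, annotation and build lay behind the values is not given in the sources used here. The members and gene lists were chosen with earlier results of these data known.

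TPM was taken as log2 with a pseudocount of 1. A gene needed at least 1 TPM in at least 3 libraries. The 2 groups were compared with limma 3.58.1 (mean-variance trend, robust estimation with statmod 1.5.0) in R 4.3.3, two-sided, with Benjamini-Hochberg adjustment over 16077 genes; the script was tested on simulated data. Positions and coding sequences are those of GENCODE 29 on GRCh38, the latter translated with Biopython 1.88 and compared with BLAST+ 2.17.0; 229 of the 232 names matched GENCODE. Promoters are from RefSeq (GRCh38.p14) and 198 matched by symbol.

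TPM keeps no depth. Reads were estimated from TPM, GENCODE exon length and the smallest step of each library, and 67.2% to 67.9% of values came out whole within 0.01 read, so totals are estimates; the median 95% interval of a log2 change over the 232 genes was 0.19 to either side. Replicates differed by more than counting noise (median chi-square over expected 2.5 to 6.16), so each library counted as 1 sample. Named were the 10 largest called changes each way with non-overlapping groups, the 5 most abundant genes, members of the role lists, the corepressor and HUSH lists, the 3 genes on either side of 5 TPM, the largest called change on each chromosome with at least 8 members, and pairs with at least 80% protein identity. Genes of the distal and dense runs, called members of 2 other runs and their neighbours were named after their values were seen. Alternatives were another pseudocount, no filter, a filter at 5 TPM, median-ratio scaling, limma-voom on estimated reads, the replicate number as a block, other minimum levels, and leaving out each library.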

Additional observations from a re-analysis of the deposited data

How the results depend on the processing

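The counts of 48 ZNF genes called higher and 67 lower were 48 and 67 with a pseudocount of 0.1, 43 and 55 with no filter, 50 and 72 with a filter at 5 TPM, 53 and 79 with median-ratio scaling, 66 and 72 with limma-voom on estimated reads, and 41 to 48 and 54 to 71 with 1 library left out. At a minimum mean of 10 TPM, 28 were higher and 56 lower with a median log2 change of -0.13, and at 2 TPM 80 and 74. The median of the 232 genes was near 0 throughout, at -0.074 to -0.011 with 1 library left out and 0.0035 by limma-voom. Replicate numbers did not pair the samples: deviations from group means of same-numbered libraries correlated at -0.06, 0 and -0.02. With the replicate block 41 were higher and 53 lower, and 94 of the 115 calls remained. In the distal run 17 to 22 genes were called higher over these settings, but 11 of 15 without genes that share windows, where fewer genes were counted. Of 75 named genes called, 0 turned direction and 13 lost their call under at least 1 setting, 9 of them ZNF genes with 1 library left out. Calls were also gained. Of 1536 comparisons of 128 followed genes with another setting, 31 gave a call to a gene not called with the main settings. With all 6 libraries, limma-voom gave 11 of these and median-ratio scaling 8. Among them, ZNF516, ZNF830, ZNF445 and MORC3 were called higher by limma-voom, and PPHLN1 lower with median-ratio scaling. Genes not called changed sign near 0. By limma-voom ZNF207 was at 0.032, ZNF346 at 0.033 and DNMT1 at 0.035, and by median-ratio scaling ZNF639 at -0.0012. With 1 library left out, ZNF84 ranged from -0.042 to 0.20, ZNF207 from -0.055 to 0.024, ZNF562 from -0.012 to 0.049, ZNF146 from -0.074 to 0.17, ZNF350 from -0.072 to 0.10, ZNF460 from -0.13 to 0.0053, ZNF639 from -0.030 to 0.059, ZNF346 from -0.060 to 0.049, TRIM28 from -0.0072 to 0.072, SUV39H2 from -0.044 to 0.084, DNMT1 from -0.021 to 0.024, FAM208A from -0.21 to 0.0024, FAM208B from -0.14 to 0.0081 and SMCHD1 from -0.18 to 0.030. The cause of these moves was not tested.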

Other observations

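Of 149 ZNF genes tested that averaged under 5 TPM, 58 were called higher in resistant cells, 41 of them on chromosome 19, and 10 lower, 4 of them on chromosome 7, with a median log2 change of 0.25. Those shares were 38.9% higher and 6.71% lower, beside 20.9% and 12.4% of all 5056 genes tested under 5 TPM. Of the 149, 24 were under 1 TPM in every control library and 3 in every resistant library. A gene near the filter of 1 TPM in 3 libraries can pass through 1 group alone, so these counts describe the genes that passed. ZNF431, a KRAB gene of chromosome 19, had 0.0449, 0.163 and 0 TPM in resistant libraries, against 2.32, 2.64 and 2.70 TPM in control libraries (log2 change -1.73, limma adjusted p = 0.000114). ZNF28, just under 5 TPM, had 8.58, 6.16 and 6.32 TPM in resistant libraries, against 2.45, 3.34 and 3.06 TPM in control libraries (log2 change 1.02, limma adjusted p = 0.00101). ZNF655 on chromosome 7 averaged 1.62 ± 0.0545 TPM in resistant cells and 6.29 ± 0.890 TPM in control cells (SD, n = 3 each). In all 3 genes the groups did not overlap, and ZNF431 and ZNF655 were picked out after their values had been seen.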
